A study of Mus musculus with 4 samples.

Results

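The bile acid and organic anion transporters described here are 10 genes of the liver, 6 for uptake from blood (Slc10a1, Slco1a1, Slco1a4, Slco1b2, Slco2b1 and Slco4c1) and 4 for export (Abcb11, Abcb4, Abcc2 and Abcc3). They were chosen by gene symbol, as named in the scanner files or through the probe's accession. Together they had 14 probes, 8 for uptake and 6 for export, out of 41174 gene probes for 28786 genes on the array. RNA came from livers of C57BL/6J mice, an inbred laboratory strain. The 4 groups were control fetus, fetus of food deprivation (labelled FD), control mother and food-deprived mother. Total RNA of 5 to 10 biological replicates was pooled per condition and hybridised to 4 two-colour arrays of 1 slide, 2 arrays for the fetus and 2 for the mother. On the first array of each comparison the food-deprived RNA was in Cy5 and the control RNA in Cy3, and on the second array the dyes were swapped. The title places the study in research on the developmental origins of health and disease. The sources used here do not state how long food was withheld, the gestational stage, the animals' ages or the sex of the fetuses.

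Hepatocytes take bile acids up from portal blood across their sinusoidal membrane and export them across the canalicular membrane into bile, so that the pool circulates between liver and intestine. Slc10a1 encodes the sodium-dependent bile salt uptake protein, and the Slco genes encode sodium-independent organic anion transporters that also carry conjugated steroids, thyroid hormones and drugs. Abcb11 encodes the bile salt export pump, Abcb4 the canalicular flippase that supplies phosphatidylcholine to bile, Abcc2 a canalicular pump for conjugates such as bilirubin glucuronide, and Abcc3 a pump that returns conjugates to blood. In the fetus the placenta and the maternal liver clear much of this load, and the fetal liver is also a site of blood cell formation.

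The probes below include those that carried the members' calls in the fetal and maternal responses. They are the 60-base array probes as the scanner files give them, 5′ to 3′ on the sense strand of the transcript, whole or as their first 30 bases, with mm7 coordinates from the same files. No gene annotation of that build was used, so the exon or untranslated position of each probe was not analysed here. Not shown are the second Slco1a1 probe and the probes of Slco2b1 and Abcc3, genes called only in other comparisons. The Abcb4 probes lay at chr5:8996752-8996811 and chr5:8978600-8978659 on the plus strand. The bright Slco4c1 probe, which the files name from an expressed sequence tag, lay at chr1:96668669-96668728 (minus strand), and the one made to the RefSeq transcript was split over chr1:96670939-96673073, a span of 2135 bases. Abcb11 lay at chr2:69168882-69168941 (minus strand). Slco1b2 at chr6:141738135-141738194 (plus strand), Slco1a4 at chr6:141858334-141858393 (minus strand) and Slco1a1 at chr6:141961072-141961131 (minus strand) were neighbours, with 120.2 kb between the starts of the first pair of probes and 102.4 kb between those of the second pair.
Abcb4, bright probe: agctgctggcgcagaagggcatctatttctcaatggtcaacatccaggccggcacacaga
Abcb4, dim probe: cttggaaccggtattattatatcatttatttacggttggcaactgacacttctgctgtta
Slco4c1, split probe: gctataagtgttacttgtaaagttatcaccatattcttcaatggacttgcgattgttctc
Slco4c1, bright probe, first 30 bases: tgtctgataaataggacagtagagaattgg
Slco1b2, first 30 bases: tcaaaatttgcatggtgctattctctcctg
Slco1a4, first 30 bases: tatctcggtggatatgtgattgcctaatac
Slco1a1, bright probe, first 30 bases: ccaagttcgagaacgatggagaactgaaaa
Abcb11, first 30 bases: ccaccatgtcacctgatgtcccttactcct

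Per channel, 53.2% to 69.7% of the gene spots exceeded background clearly ("well above background" in the scanner software), and none was saturated. The titles number the pooled samples of a comparison 1 and 2, and the labels do not settle whether these are the same pools on both arrays. They were counted as 1 replicate per condition, since sample number and dye orientation coincide, and there was no replicate check and no test was made. The spread between arrays therefore covers dye and array, and any difference between pools if they were distinct, with an SD per array of the log2 ratio of 0.15 over fetal genes and 0.17 over maternal genes. The call rule required a mean change of 2-fold or more, with both arrays each at 1.5-fold or more the same way. The words "rose" and "fell" refer only to called genes. Where a gene had several measured probes the brightest one stood for it. Ratios are log2 of food-deprived over control liver, given for the first and then the second array, and levels are log2 channel signals that can be compared between groups for 1 probe but not between genes.

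In the fetal liver 2 of the 6 uptake genes rose, Slco4c1 and Slco1b2, and Slco2b1 lay just below the 2-fold line, while none of the 4 export genes was called. In the maternal liver the export genes moved in opposite directions, with Abcb11 falling 4.79-fold and Abcb4 rising 2.35-fold, and so did the uptake genes Slco1a1, which fell 3.65-fold, and Slco1a4, which rose 2.31-fold. Of all measured genes, 0.737% were called in the fetus, 0.471% higher and 0.266% lower (85 and 48 of 18055). In the mother 3.43% were called, 1.55% higher and 1.88% lower (250 and 304 of 16148). With arrays centred on their median in place of loess, these counts were 69 higher and 22 lower in the fetus and 45 higher and 84 lower in the mother. The plot of responses by gene shows the values of each array.

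**Figure D1:**
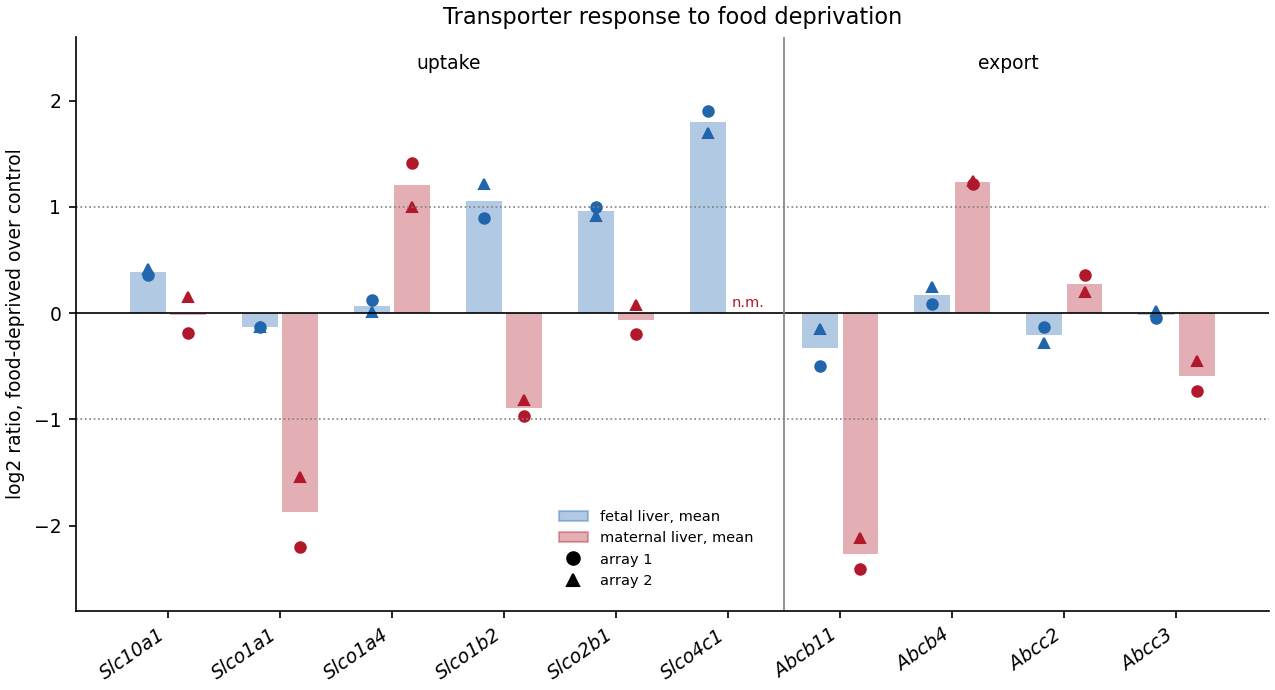
Log2 ratio of food-deprived over control liver for the 10 transporter genes (bars, mean of 2 arrays; circles, first array; triangles, second array with swapped dyes; blue, fetus; red, mother; n.m., not measured because no condition was well above background). Dotted lines mark 2-fold. Slco4c1 (1.80) and Slco1b2 (1.05) are above the upper line in the fetus, and Abcb11 (-2.26) and Slco1a1 (-1.87) are below the lower line in the mother.

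Slco4c1 encodes an organic anion transporter best known from the kidney, where it takes up cardiac glycosides and thyroid hormone at the basolateral membrane. Its log2 level in the fetal liver was 7.47 on both control channels and 9.37 and 9.16 on the food-deprived channels. In the mother it was 6.51 and 6.45 in control and 6.44 and 6.43 in food-deprived liver, and none of these 4 maternal signals was well above background. The fetal channels of the conditions did not overlap, and the transcript rose 3.47-fold (log2 ratios 1.90 and 1.69, mean 1.80 ± 0.15, SD of 2 arrays), the 9th highest mean ratio of 18055 measured genes. The dim probe, split over its genomic span, gave 2.69-fold (1.51 and 1.35), so that both non-overlapping probes passed the call rule. Among kidney markers, Umod, Slc12a1, Slc12a3, Slc34a1, Nphs1 and Kap were not well above background in any of the 4 groups, while Aqp2 was well above background in all 4, with a mean fetal ratio of -0.081 and a level 4.22-fold lower in the control mother than in the control fetus. The part of kidney tissue in the Slco4c1 signal was not tested.

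Slco1b2 encodes a sinusoidal transporter of unconjugated bile acids and bilirubin conjugates that is found mainly in hepatocytes. Its fetal log2 level was 13.07 and 13.04 in control and 13.97 and 14.25 in food-deprived liver, a rise of 2.08-fold (0.90 and 1.21, mean 1.05 ± 0.22). In the mother the level was 14.92 and 14.57 in control and 13.96 and 13.76 in food-deprived liver. The maternal ratio of -0.96 and -0.81 (mean -0.89 ± 0.11, 1.85-fold lower) did not pass the 2-fold line. All 4 arrays separated the conditions, upward in the fetus and downward in the mother. The fetal call rested on the second array: without it the ratio was 0.90, and with median centring the mean was 1.32 but 1 array stayed under 1.5-fold, so that neither setting made the call.

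Slco2b1 encodes a transporter of sulphated steroids such as oestrone sulphate. Its fetal log2 level was 7.85 and 7.82 in control and 8.85 and 8.74 in food-deprived liver, and the ratios of 1.00 and 0.92 gave a mean of 0.96 ± 0.056, or 1.94-fold, short of the call. The scanner software's own log ratio (1.28), an offset of 0 (1.13) and a replaced local background at stained spots (1.03) each put it past the 2-fold line. Maternal levels were 12.84 and 12.53 in control and 12.64 and 12.61 in food-deprived liver, and the ratios, -0.20 and 0.079, had opposite signs on the 2 arrays.

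Slc10a1, the sodium-dependent bile salt uptake gene, was not called in either liver. Its fetal ratios of 0.36 and 0.42 were alike on both arrays (1.31-fold higher), and its maternal ratios were -0.18 and 0.15. The levels of the 4 groups lay close together, at means of 12.57 and 12.96 in control and food-deprived fetus and 12.90 and 12.88 in control and food-deprived mother. The first of these was the lowest, and the maternal channels of the conditions overlapped.

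Slco1a1 and Slco1a4 encode closely related sinusoidal transporters of bile acids and organic anions, and Slco1a1 is known in adult mouse liver for higher expression in males. In the fetus both were dim. Slco1a1 had log2 levels of 6.65 and 6.70 in control liver and 6.52 and 6.57 in food-deprived liver. The food-deprived signal was not well above background on either array. The mean ratio of -0.13 lay within the SD per array over fetal genes, 0.15, so no direction was read from it. Slco1a4 had 6.53 and 6.65 in control and 6.65 and 6.66 in food-deprived fetal liver, and its ratios were 0.12 and 0.013.

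In the mother the pair moved apart. Slco1a1 was at 9.64 and 9.58 in control and 7.44 and 8.04 in food-deprived liver and fell 3.65-fold (-2.20 and -1.54, mean -1.87 ± 0.47), the 55th lowest of 16148 genes. Its second probe fell 2.54-fold (-1.48 and -1.22). Slco1a4 was at 10.02 and 10.18 in control and 11.43 and 11.18 in food-deprived maternal liver and rose 2.31-fold (1.41 and 1.00, mean 1.21 ± 0.30). The arrays differed by more than the typical SD for both genes, and the ratio of Slco1a4 on the second array alone, 0.996, missed the 2-fold line. With median centring its arrays had opposite signs (mean 1.18) and it was not called. The related gene Slco1a5 gave 1.06 and 0.62 in the mother, short of the call, and signal shared between these related transcripts was not tested.

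Among the export genes, Abcb11, the bile salt export pump, had the largest change. Its maternal log2 level was 15.19 and 14.62 in control and 12.79 and 12.50 in food-deprived liver, with no overlap, and it fell 4.79-fold (-2.40 and -2.12, mean -2.26 ± 0.20), the 18th lowest ratio of 16148 genes. Over all the alternatives to the processing its maternal ratio stayed between -2.40 and -2.12. In the fetus the level was 14.13 and 13.87 in control and 13.63 and 13.72 in food-deprived liver, and the ratios of -0.50 and -0.15 (mean -0.33 ± 0.25) did not pass the call. The array had 1 probe for this gene.

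Abcb4, the phosphatidylcholine flippase, moved the other way in the mother. It was at 13.86 and 13.92 in control and 15.08 and 15.16 in food-deprived liver and rose 2.35-fold (1.22 and 1.25, mean 1.23 ± 0.022), and the dim probe printed above rose 2.12-fold (1.13 and 1.04). In the fetus the bright probe gave 0.087 and 0.25 and the dim probe 0.14 and 0.18. With median centring the maternal mean was 1.12 and the call was not made, because the arrays then had opposite signs.

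Abcc2 and Abcc3 were not called in either liver. Abcc2, the canalicular conjugate pump, gave -0.13 and -0.28 in the fetus and 0.36 and 0.20 in the mother. Abcc3, the basolateral conjugate pump, gave -0.046 and 0.021 in the fetus and -0.73 and -0.45 in the mother (mean -0.59 ± 0.20, 1.51-fold lower). A second Abcc3 probe was not well above background in the fetus and on only 1 maternal array, and was not used.

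**Figure D2:**
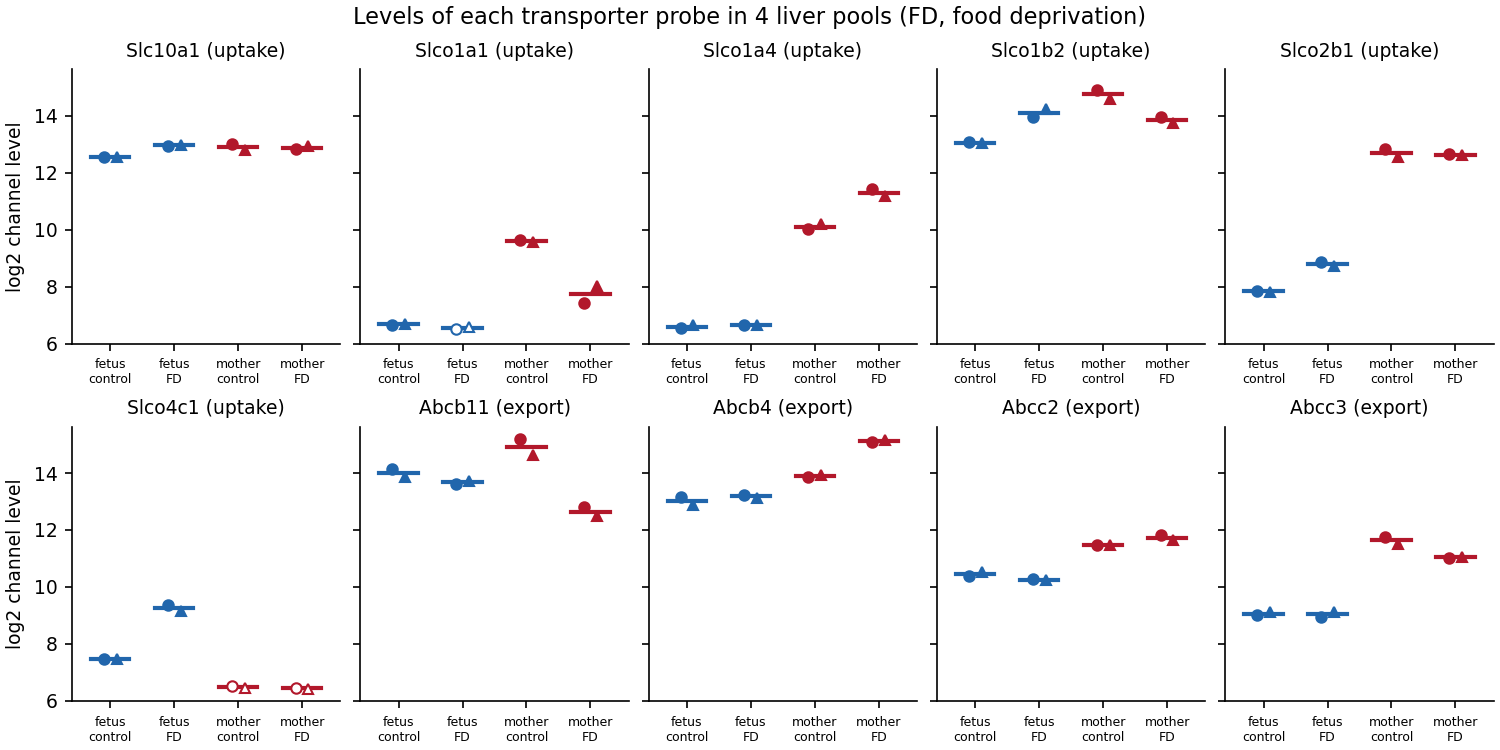
Log2 channel level of the brightest probe of each transporter in the 4 liver pools (circles, first array; triangles, second array; horizontal bars, mean; open symbols, not well above background). Heights can be compared within a panel and not between panels. Maternal Slco4c1 is at background in both conditions, and Abcb11 is lowest in the food-deprived mother at a mean of 12.64.

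Uptake and export were then set side by side. In the fetus the median ratio of the 6 uptake genes was 0.67, with 5 of 6 above 0 and a range of -0.13 to 1.80, beside 0.004 over all measured genes. The 4 export genes had a fetal median of -0.11 and a range of -0.33 to 0.17, and the sign of this median turned to 0.079 with median centring. In the mother the 5 measured uptake genes had a median of -0.060 and a range of -1.87 to 1.21, and the 4 export genes had a median of -0.16 and a range of -2.26 to 1.23. The maternal uptake median was 0.079 without the first array. Thus the groups stood apart by their medians in the fetus, where export genes stayed within a narrow range, and in the mother each group held 1 gene that rose and 1 that fell.

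The difference between the maternal and the fetal response was taken on arrays of equal dye orientation. It passed the call rule for 6 of the 9 members measured in both livers, 1 of them Slco1a1, whose food-deprived fetal signal was not well above background, beside 2.99% of 15598 genes (1.23% higher and 1.76% lower in the mother). The ratio was lower in the mother for Slco1b2 (-1.94, 3.84-fold), Abcb11 (-1.93, 3.82-fold), Slco2b1 (-1.02, 2.02-fold) and, with no exact size because of its fetal background signal, Slco1a1 (-1.74, and -1.32 by the scanner software). With both channels required to be well above background, 5 of 8 members passed. It was higher in the mother for Slco1a4 (1.14, 2.20-fold) and Abcb4 (1.06, 2.09-fold). Slc10a1 (-0.41), Abcc2 (0.48) and Abcc3 (-0.58) did not pass, and Slco4c1 could not be compared because its maternal signal was at background. The uptake median of this difference was -1.02 and the export median -0.049. With median centring 3 members passed, none of them higher in the mother, and over all genes 67 were then called higher and 349 lower in place of 192 and 274. The second arrays alone, without replicate 1, also left 3 members, and Slco1a4 (0.98), Abcb4 (0.997) and Slco2b1 (-0.84) fell short there. The dim Abcb4 probe alone gave 0.93, and Slco1a4 missed the call with the scanner's ratio (0.88) and with an offset of 0 (0.96).

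**Figure D3:**
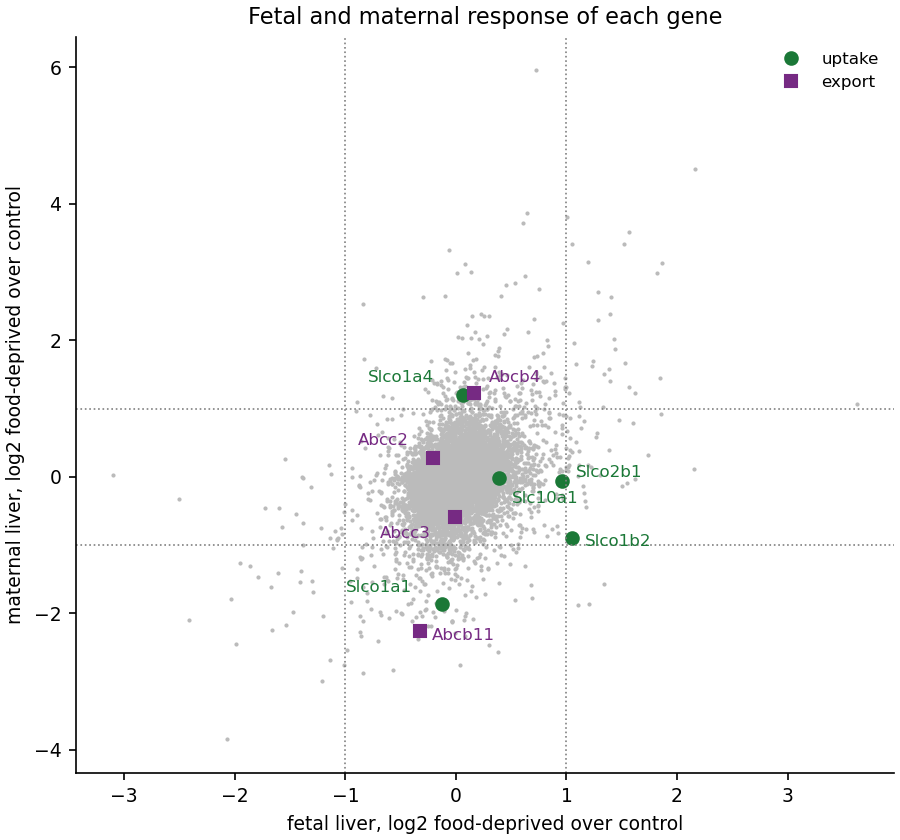
Mean log2 ratio of food-deprived over control in fetal liver (x axis) and maternal liver (y axis) for 15478 genes represented by the same probe in both (grey), with uptake genes as green circles and export genes as purple squares. Dotted lines mark 2-fold. Slco1b2 lies to the right at 1.05 and -0.89, and Abcb11 (-0.33 and -2.26) and Slco1a1 (-0.13 and -1.87, its fetal value resting on a signal at background) lie low.

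The control pools of mother and fetus were compared next on channels of equal dye. In control liver 4 of 6 uptake genes and 1 of 4 export genes were higher in the mother and none was lower, beside 19.3% of 18085 genes called in either direction, 9.06% higher and 10.3% lower. Slco2b1 was 28.9-fold higher in the mother (log2 difference 4.99 and 4.72), Slco1a4 11.4-fold (3.48 and 3.53), Slco1a1 7.62-fold (2.99 and 2.88), Abcc3 5.98-fold (2.75 and 2.42) and Slco1b2 3.23-fold (1.85 and 1.54). The canalicular genes differed less, with Abcc2 1.99-fold, Abcb11 1.87-fold and Abcb4 1.83-fold higher in the mother and none past the call, although the scanner software's values put all 3 past it (1.41, 1.59 and 1.46 on the log2 scale). Slc10a1 differed by 0.33 on the log2 scale. Slco4c1 ran the other way and was at least 1.94-fold higher in the control fetus by its bright probe and at least 1.59-fold by its dim one, measured against the lowest signal well above background. The uptake median was 2.31 and the export median 0.95.

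These control differences stand beside a difference in the cells of the organ. All 10 erythroid markers on the array were lower in the control mother than in the control fetus, with a median log2 difference of -3.92. With the 3 markers at maternal background set to their bound it was -3.91. The log2 of their summed linear signals was 17.68 and 17.86 in control fetus and 14.99 and 15.26 in control mother. Bright probes weigh most in this sum. Hepatocyte markers had a median difference of 0.12, with 1 of 8 (Ass1) called higher. In such whole-liver RNA, fewer cells of a type and less RNA per cell cannot be told apart, and the part of the blood-forming cells in the transporter differences was not tested. The sizes for dim fetal probes also depended on the scale: by the scanner software's processed signal Slco1a4 differed by 6.83 and Slco1a1 by 5.95, and with that scaling the median of all genes moved from 0.023 to 0.14.

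The food-deprived pools gave a different order of mother and fetus for some genes. These values share their channels with the responses above and restate them as levels. Abcb11, 1.87-fold higher in the control mother, was 2.04-fold lower in the food-deprived mother than in the food-deprived fetus (-0.84 and -1.23). Slco1b2, 3.23-fold higher in the control mother, differed by -0.009 and -0.49 between the food-deprived livers, so its maternal and fetal levels came near each other. Slco2b1 went from 28.9-fold to 14.3-fold higher in the mother. Abcb4 went from 1.83-fold to 3.81-fold and Slco1a4 from 11.4-fold to 25.0-fold higher in the mother. Slco4c1 was at least 7.09-fold higher in the food-deprived fetus than in the food-deprived mother by its bright probe and at least 4.53-fold by its dim one.

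**Figure D4:**
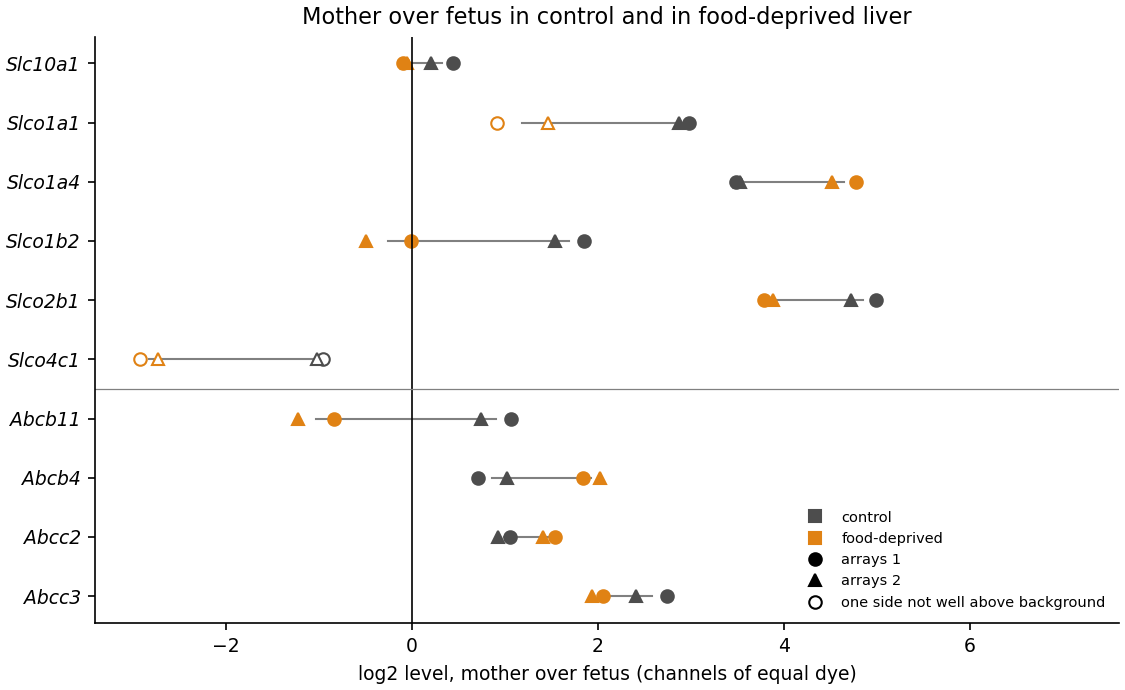
Log2 level of mother over fetus for each transporter in control liver (grey) and food-deprived liver (orange), on channels of equal dye (circles, Cy3 or Cy5 of the first arrays; triangles, second arrays; lines join the means; open symbols, 1 side not well above background). Abcb11 moves across 0 from 0.90 to -1.03 and Slco1b2 from 1.69 to -0.25, while Abcb4 and Slco1a4 move to the right.

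By level, the order for Abcb11 was control mother, control fetus, food-deprived fetus and food-deprived mother, at means of 14.90, 14.00, 13.67 and 12.64. The fetal pair was separated by 0.33, near the spread of its arrays. For Slco1b2 the order was control mother (14.75), food-deprived fetus (14.11), food-deprived mother (13.86) and control fetus (13.05), and the middle pair differed by 0.25, near the spread of its arrays. For Abcb4 it was food-deprived mother (15.12), control mother (13.89), food-deprived fetus (13.19) and control fetus (13.02), with the fetal pair within its spread. For Slco4c1 the food-deprived fetus (9.26) was above the control fetus (7.47), and the maternal pools had no order.

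Promoter sequence was examined for the 9 members with an entry in the RefSeq promoter table of assembly GRCm38.p6. Abcb11 is a known target of the bile acid receptor encoded by Nr1h4, which binds inverted repeats of AGGTCA separated by 1 base. The form AGGTCANTGACCT, searched on both strands, was in 2 of 32851 windows of 250 bases before a gene start and in no member. After the Abcb11 sequence had been seen, the form was loosened by 1 letter to AGGNCANTGACCT, which contains the first form and ends in TGACCT, the repeat read on the other strand. It was in 11 windows (0.0335%), among them those of Abcb11 and Slco1b2. The single repeat AGGTCA alone was in 14.0% of windows and in 5 of the 12 windows of the 9 members. These 5 belonged to Abcb11, Abcc2, Slc10a1, Slco1a1 and Slco1b2. A match is a description of letters and not of binding. The 250 bases before the gene start are shown for the pair with the longer match, which is in capitals, at 63 to 51 bases before the start of Abcb11 (chr2:69342617-69342866, minus strand) and 88 to 76 bases before that of Slco1b2 (chr6:141629268-141629517, plus strand).
Abcb11: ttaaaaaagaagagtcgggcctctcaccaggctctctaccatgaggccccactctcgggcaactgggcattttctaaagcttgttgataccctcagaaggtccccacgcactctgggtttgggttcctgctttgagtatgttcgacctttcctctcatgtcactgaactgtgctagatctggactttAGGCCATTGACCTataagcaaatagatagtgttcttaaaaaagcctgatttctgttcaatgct
Slco1b2: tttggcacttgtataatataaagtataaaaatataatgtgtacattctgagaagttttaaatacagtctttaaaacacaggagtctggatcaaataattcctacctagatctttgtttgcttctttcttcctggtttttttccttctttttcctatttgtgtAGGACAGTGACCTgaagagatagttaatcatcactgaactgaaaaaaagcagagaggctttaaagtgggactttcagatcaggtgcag

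Other genes of bile acid handling were followed in 5 lists. Of 14 genes of bile acid synthesis and conjugation, 4 fell and 1 rose in the mother, where 3.43% of all genes were called. Cyp7a1, whose hydroxylase sets the rate at which cholesterol becomes bile acid, fell 4.25-fold (-2.11 and -2.06), and its second probe fell 2.09-fold. Akr1c6 fell 5.44-fold (-2.12 and -2.76), Akr1d1, a steroid reductase of bile acid synthesis, 2.42-fold (-1.59 and -0.96), and Cyp7b1, the oxysterol hydroxylase, 2.28-fold (-1.14 and -1.24). Cyp8b1, the sterol hydroxylase that directs synthesis to cholic acid, rose 2.58-fold (1.19 and 1.55). The list's maternal median was -0.11. In the fetus 1 of 14 fell, Akr1c6 (3.98-fold, -2.06 and -1.93), none rose, and the median was 0.13, where 0.737% of all genes were called. Fetal Cyp7a1 gave 0.19 and 0.12, and the maternal minus fetal difference for Cyp7a1 was -2.24.

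None of the 16 measured regulators of transporter genes was called in either liver. Their ratios ran from -0.26 to 0.99 in the fetus (median 0.26) and from -0.94 to 0.88 in the mother (median -0.11). Nr1h4, the bile acid receptor gene, gave 0.61 and 0.45 in the fetus and 0.53 and 0.39 in the mother, 1.44-fold and 1.38-fold higher. Nr0b2, which encodes the small heterodimer partner that represses Cyp7a1, gave 0.28 and 0.16 in the fetus and -0.87 and -0.68 in the mother. In control liver 8 of the 16 were higher in the mother, beside 9.06% of all measured genes. They were led by Nr1i3, the constitutive androstane receptor gene (8.70-fold), Nr1h3 (3.61-fold), Fgfr4 (3.30-fold) and Nr0b2 (3.11-fold).

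Of 8 genes that anchor transporters or carry them to the membrane, 2 fell in the mother, where 1.88% of all genes were called lower. None was called in the fetus. Pdzk1, a scaffold protein that binds organic anion transporters, fell 2.19-fold in the mother (-1.31 and -0.96), and its fetal ratios were -0.65 and -0.44. Slc9a3r1, a related scaffold, fell 2.54-fold in the mother (-1.43 and -1.26). The list's median was -0.42 in the mother and -0.033 in the fetus. Ezr, the ezrin gene, was 7.40-fold lower in the control mother than in the control fetus.

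Among 16 other bile and organic ion transporters, 1 of 13 measured genes rose in the fetus and none fell. It was Abcg5, a subunit of the canalicular sterol exporter (2.16-fold, 1.01 and 1.21). Abcg8, of the same list, gave 0.28 and 0.13 in the fetus and was not called. In the mother Abcb1b, a multidrug export pump, rose 2.18-fold (0.95 and 1.29) and Slc22a7, a sinusoidal organic anion transporter, fell 3.32-fold (-1.76 and -1.70), out of 15 measured. The medians were 0.067 and -0.20, and of all measured genes 0.737% were called in the fetus and 3.43% in the mother. In control liver 8 of 15 were higher in the mother and 1, Abcg2, was lower, beside 9.06% and 10.3% of all measured genes. Among the higher ones were Slc22a7 (at least 35.5-fold, its control fetal signal not being well above background) and Abcg5 (10.1-fold). Of 10 other Slco genes, 4 were measured in the fetus and 3 in the mother, and none was called in either response (medians 0.053 and -0.43).

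**Figure D5:**
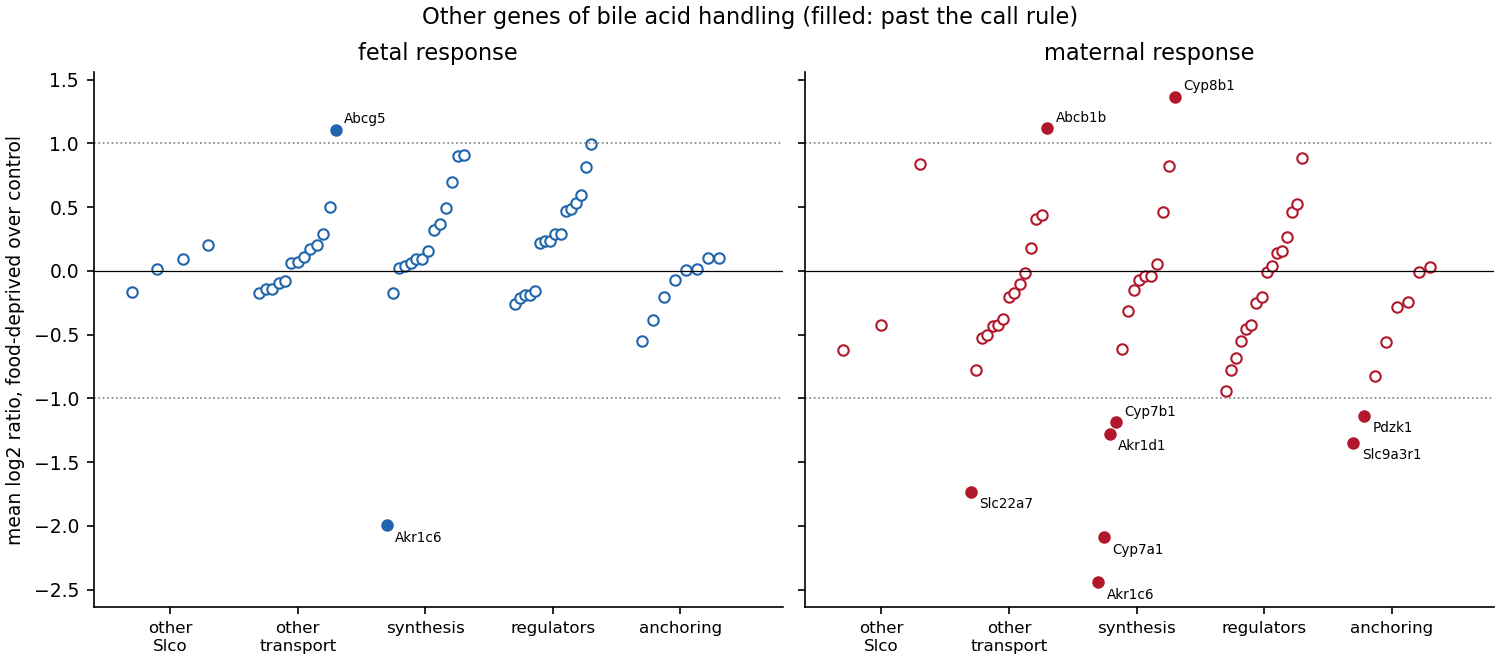
Mean log2 ratio of food-deprived over control for the measured genes of 5 lists of bile acid handling, in fetal liver (left) and maternal liver (right), each point 1 gene ordered by value within its list (filled, past the call rule). Abcg5 and Akr1c6 are filled in the fetus, and 5 synthesis genes are filled in the mother, of which Cyp8b1 alone lies above 0.

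Genes with the most similar pattern were listed for 3 members, by the Euclidean distance over the log2 ratios of the 4 arrays among 15598 genes measured in both livers. For Abcb11 they were Osgin1 (distance 0.19), Ndrg1 (0.46) and Adra1b (0.48), and Osgin1 gave -0.59 and -0.097 in the fetus and -2.51 and -2.24 in the mother. For Slco1b2 they were Etnppl (0.37), Dbp (0.42) and a probe without a gene symbol (0.54), and Dbp gave 0.97 and 0.86 in the fetus and -0.78 and -0.68 in the mother. For Slco4c1, with its background maternal ratios entered as they were, they were Cth (0.29), Gpt (0.44) and Cyp3a25 (0.55).

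Markers of the cells in the pools were read beside these changes, and their part in the transporter changes was not tested. Over all measured genes 0.737% were called in the fetus and 3.43% in the mother. In the fetus none of 10 erythroid markers was called, all 10 were below 0 and their median was -0.26. The log2 of their summed linear signals was 17.68 and 17.86 in control and 17.35 and 17.71 in food-deprived fetal liver. None of 8 hepatocyte markers was called there (median 0.23). In the mother 1 of 8 hepatocyte markers, Ttr, fell 3.55-fold, and the median was 0.062. Of 9 Kupffer cell markers 2 fell in the mother, Adgre1 (2.18-fold) and Cd5l (2.04-fold), and none was called in the fetus. The log2 of their summed linear signals was 14.52 and 14.69 in control and 13.87 and 13.97 in food-deprived maternal liver. Of 8 endothelial markers, Lyve1 alone rose in the mother (2.02-fold). The list's maternal median was -0.18, with 2 of 8 above 0. Cholangiocyte markers were not called in either response. Of the intestine markers, Lgals4 rose in the fetus (2.18-fold) and mother (2.03-fold) and Fabp2 in the mother (2.56-fold). In the fetus Fabp2 (-0.17) and Vil1 (-0.29) were below 0 and not called, and Vil1 was not measured in the mother. Cdx1, Cdx2 and Cdh17 were not well above background in any group.

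The fetal pools also differed in Xist, the RNA of X inactivation, which only female cells normally express. None of its 4 probes exceeded background clearly in the fetal pool of food deprivation, and the brightest fell at least 6.89-fold from control (ratios -3.58 and -2.62). The Y-linked genes Ddx3y, Eif2s3y, Kdm5d and Uty were well above background in both fetal pools and not in the maternal ones. The part of fetal sex in the fetal rises of Slco4c1 and Slco1b2 was not tested.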

How the data were processed

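Liver RNA of fetal and maternal mice was measured on 4 two-colour Agilent arrays. Per the file headers, the deposited scanner files hold intensity values of each spot (mean signal and median local background), processed signals and their log10 ratio of red over green, all after the scanner software's own background subtraction and dye normalisation. That software was Agilent Feature Extraction, version 9.5.1.1 per the file headers and 9.5.3.1 per the submitters' processing notes. The deposited table of the whole series matched the linear ratio of red over green. The meaning of the minus sign in its columns with medians of -0.92 and -0.88 stays unknown, and its other columns had medians of 0.94 and 0.88. The sign was dropped.

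Spots were corrected in R 4.3.3 with limma 3.58.1 by normexp (offset 50), which shrinks ratios of dim spots, and normalised by loess within each array with control spots at weight 0. Outlier-flagged spots (215 to 257 per array) were left out, and spots of a probe averaged. A probe was measured when its control or its food-deprived channel was well above background on both arrays. The probe with the highest mean intensity over the 4 arrays stood for a gene. Of 41174 gene probes 22951 were named by accession through the RefSeq table of GRCm38.p6, and 18223 kept the name in the files. Levels were also normalised between arrays (Aquantile). The procedure was tested on simulated data, with changes well past the 2-fold line and on bright probes only. True changes near that line or on dim probes were not simulated.

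The members and the 15 gene lists were chosen with earlier results of these data known. Named genes were all 10 members, called genes of 5 pathway lists (at most 8 per comparison, by size), Cyp7a1, Nr1h4, Nr0b2, Pdzk1 and the 3 genes nearest to each of 3 members. The loosened promoter motif was chosen after its sequence was seen. The alternatives were the scanner's log ratio, replaced background at stained spots, median centring, offset 0, quantile normalisation, other probe and dim filters, the series table and each array left out.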

Additional observations from a re-analysis of the deposited data

Results flagged for a closer look

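Only the transporter members, Cyp7a1, Nr1h4, Nr0b2 and Pdzk1 were searched here for opposite directions in fetus and mother. For Slco1b2, Abcc2, Cyp7a1 and Nr0b2 both fetal arrays moved one way and both maternal arrays the other, whatever the size. The difference was not tested, since the arrays of a comparison were counted as 1 replicate. Slco1b2 was above control on both fetal arrays (0.90 and 1.21) and below it on both maternal arrays (-0.96 and -0.81), a maternal minus fetal difference of -1.94. Abcc2 did the opposite with small values (-0.13 and -0.28, then 0.36 and 0.20), a difference of 0.48. For Cyp7a1 the difference was -2.24, nearly all of it from the maternal fall, with fetal ratios of 0.19 and 0.12. Fetal ratios of Abcc2 and Cyp7a1 were near the SD per array over fetal genes, 0.15. Nr0b2 gave a difference of -0.99, with 0.28 and 0.16 in the fetus and -0.87 and -0.68 in the mother. The pattern was not particular to these genes. Akr1d1 (0.60 and 0.39, then -1.59 and -0.96) and Cyp27a1 (0.88 and 0.94, then -0.47 and -0.16) also had it. So did Slc47a1 (0.22 and 0.79, then -1.01 and -0.53), among other listed genes. Its share of all measured genes was not counted.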

How the results depend on the processing

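No member was called in opposite directions under any setting tried. The fetal count of 2 became 4 with the scanner's log ratio and with the series table, which holds nearly the same ratios. It was 1 with median centring, and 1 to 2 with 1 array left out. Over all 18055 measured genes the 133 fetal calls became 402 with the scanner's log ratio, 406 with the series table and 91 with median centring. The maternal count of 4 became 2 with median centring (3 to 4 with 1 array left out). Over all genes the 554 maternal calls became 129 with median centring. The difference count of 6 became 3 with median centring and ranged from 3 to 6 with arrays left out. The control count of 5 became 9 with the scanner's values and 7 with either pair of arrays left out. The fetal uptake median of 0.67 was 0.88 with median centring and 0.96 with both channels required above background (0.63 to 0.67 with arrays left out), and the fetal export median of -0.11 was 0.079 with median centring. The uptake median of the difference, -1.02, was -1.32 with scanner values, -1.24 with median centring, -1.19 with offset 0, -1.38 without the dim filter, -0.71 with both channels required, and -1.20 to -0.84 with arrays left out. The export median of the difference was -0.28 with median centring. In control liver the uptake median of 2.31 was 4.09 with scanner values, 2.92 with offset 0 and 2.93 with both channels required, and the export median of 0.95 was 1.52 with scanner values. The cause of these shifts was not tested. In the scanner's values fetal Slco1a1 was called lower (-1.62) although its food-deprived signal was not well above background. Arrays of equal number share their dye orientation and not animals, and without this pairing (no replicate block) the difference count was again 6. Dim fetal signals limit Slco1a1 and Slco1a4.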
